A study of Mus musculus with 4 samples.

Results

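The nuclear-encoded respiratory chain and ATP synthase genes were taken as every non-control probe whose gene name began with the stems of complex I (Nduf a, b, c, s and v), complex II (Sdha to Sdhd), complex III (Uqcr), complex IV (Cox4 to Cox8) or ATP synthase (Atp5). This gave 95 genes on 140 probes in 149 spots, out of 29676 gene names, 39429 probes and 43020 spots on the array. All 95 genes were tested, and 90 were well above background on all 4 arrays. By name the members also included 8 assembly factors of complex I, the supercomplex factor Cox7a2l, Atp5s (which is not a subunit of the synthase) and Ndufa11b, which RefSeq lists as a pseudogene.

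The cells were astrocyte-enriched cultures (AECs), made from the cerebral cortex of newborn ICR mice by growing mixed glia and depleting microglia with PLX3397, a blocker of the CSF1 receptor. Untreated AECs (n = 2) and AECs kept for 15 h in oxygen-glucose deprivation (OGD, n = 2), in which hypoxia is combined with glucose-free medium, both carried the PLX3397 treatment. RNA was labelled with a single dye and hybridised to Agilent mouse arrays, so each value is a probe's processed signal. The methods state that wells were seeded from independent cultures of different pups, though not which culture each array came from.

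The respiratory chain passes electrons from NADH (complex I) and succinate (complex II) through complex III to complex IV, cytochrome c oxidase, where they reduce oxygen. The proton gradient that builds up drives complex V, the ATP synthase. Most subunits are encoded in the nucleus, and several subunits of complex IV have isoforms used in particular tissues or conditions. Hypoxia-inducible factor 1 (HIF-1) is known from other cells to act on some of these, among them Cox4i2 and Ndufa4l2. Nuclear respiratory factor 1 (NRF-1) and GABP are known activators of many of the subunit genes.

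On all 4 arrays each of the 12 astrocyte markers was well above background, and on the 75th-percentile scale 7 of them rose and 1, Sox9 (-1.52), fell. Microglia markers summed to a processed signal of 4558 to 5111 in untreated AECs and 5117 to 6045 after OGD, with 7 to 12 of 12 genes above background. Without Cd68 the sums were 3345 to 3954 and 1339 to 1744. On the scale used below 4 of the 11 tested rose, led by Cd68 (log2 fold change 3.14), and 2 fell, Tmem119 (-0.88) and Trem2 (-0.93). Of the oligodendrocyte markers 4 of 11 rose and 4 fell, Olig2 most (-2.50), of the neuron markers 4 of 8 rose and 2 fell, and of the fibroblast markers 1 of 6 rose and 1, Pdgfrb (-2.42), fell, against 37.1% and 27.8% of all genes. On a scale set by spiked-in controls, 83.3% of all genes were called lower and 809 of 21061 higher. Of the markers, 9 astrocyte, 8 microglia, 10 oligodendrocyte, 6 neuron and 6 fibroblast genes were called lower there. Called higher were 1 microglia and 1 neuron marker. The part of these cell types in the results was not tested. The 75th percentile of the signal, to which arrays were scaled, was 2135 and 2164 in untreated AECs but 887 and 776 after OGD.

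NRF-1 sites are shown first because, among the motifs searched, the share of members with this one was the highest as a ratio to the share of all genes. RefSeq promoter sequence (GRCm38.p6, 250 bases before to 50 after the gene start) was at hand for 74 of the 95 members, without Cox4i1, Cox4i2 and Ndufa4l2 among them. The NRF-1 motif (GCGCA, any base, then GCGC, searched on both strands) was present in 19 of the 74 members (25.7%) and in 5.19% of all genes with a promoter. Of these, 3 promoters are printed for the bases before the gene start, with the motif in capitals. Atp5g2 is the highest member that carries it, Ndufa8 the lowest with a site before the start, and Sdha carries 3 sites.
Atp5g2, chr15:102671048-102671297, minus strand: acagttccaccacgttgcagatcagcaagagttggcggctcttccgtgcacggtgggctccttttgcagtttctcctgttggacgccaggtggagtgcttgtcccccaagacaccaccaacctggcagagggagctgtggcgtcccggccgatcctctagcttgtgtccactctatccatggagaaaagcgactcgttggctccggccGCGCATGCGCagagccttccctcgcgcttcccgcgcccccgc
Sdha, chr13:74350241-74350490, minus strand: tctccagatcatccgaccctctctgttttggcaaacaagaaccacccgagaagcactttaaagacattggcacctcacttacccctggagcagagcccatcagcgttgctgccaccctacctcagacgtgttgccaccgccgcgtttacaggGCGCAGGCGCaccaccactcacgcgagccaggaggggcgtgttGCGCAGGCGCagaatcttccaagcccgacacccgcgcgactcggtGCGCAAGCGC
Ndufa8, chr2:36049339-36049588, minus strand: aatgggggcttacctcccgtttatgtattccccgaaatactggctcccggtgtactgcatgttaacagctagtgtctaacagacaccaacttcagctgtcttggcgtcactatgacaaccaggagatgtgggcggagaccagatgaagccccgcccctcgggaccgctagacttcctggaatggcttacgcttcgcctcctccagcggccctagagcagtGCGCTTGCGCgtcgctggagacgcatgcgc
The GABP motif CCGGAAG was present in 18 of the 74 members (24.3%, against 9.93% of all genes), and the hypoxia response element core ACGTG in 17 (23.0%, against 21.8%). The other hypoxia core, GCGTG, was present in 42 (56.8%, against 35.2%) and the estrogen-related receptor motif AAGGTCA in 8 (10.8%, against 5.38%). Motifs could overlap each other. Members with the NRF-1 motif had a median relative log2 fold change of 0.26 (n = 19) and those without it 0.42 (n = 55). For ACGTG the medians ran the other way, 0.53 with and 0.27 without it, and they were 0.40 and 0.38 for CCGGAAG, 0.28 and 0.41 for GCGTG and 0.34 and 0.39 for AAGGTCA. A match is only a description of these letters in this window.

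Before any scaling, nearly every member gave less signal after OGD, as most genes did. The processed signal of 93 of 95 members was lower on both OGD arrays than on both untreated arrays, against 90.9% of all genes tested. It was higher on both in 1 gene, Ndufa4l2, and overlapped in 1, Cox6a2. Scaled to 9 spiked-in control probes, the median of all 21061 genes tested fell by 1.13 on the log2 scale. At an adjusted p under 0.05 in limma, 89 of 95 members were called lower (background 83.3%). Only Ndufa4l2 among the members was called higher, against 809 of all genes tested. Labelling started from the same mass of total RNA for each sample, so these values are per total RNA. Fewer cells of a type in the mixture and less of these RNAs per cell of that type cannot be told apart.

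**Figure D1:**
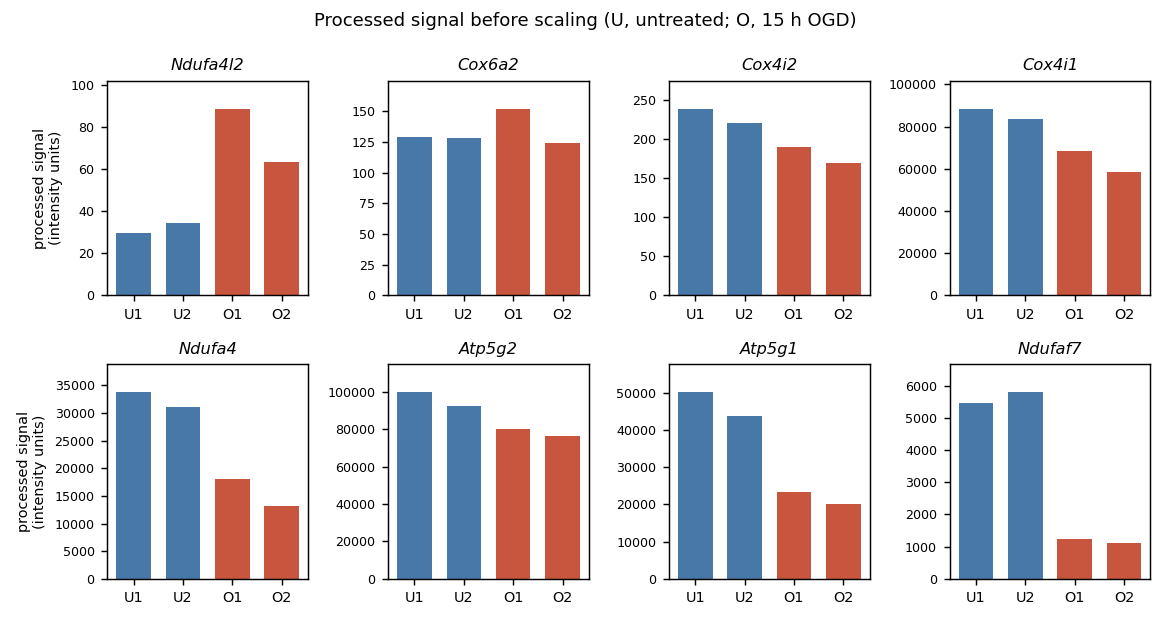
Processed signal (intensity units, each panel with its own axis from 0) of 8 members on the 2 untreated arrays (U, blue) and the 2 OGD arrays (O, red), without scaling. Ndufa4l2 stood higher on both OGD arrays, Cox6a2 overlapped, and the other 6 were lower on both.

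On the 75th-percentile scale of the study, 61 members rose and 3 fell, and 31 were not called (1 rose and 89 fell on the spike-in scale). Of all genes tested, 37.1% rose and 27.8% fell. The members' median log2 fold change was 0.53, or 0.37 relative to the median of all genes (0.16), and 72 of 95 lay above that median. None of the members passed the study's added limit of a 10-fold change, which 1.27% of all genes did. This rise depended on how arrays were normalised: with quantile normalization 8 members were called higher (28.4% of all genes) and 20 lower (31.1%), and the relative median was -0.050. With normexp background correction the relative median was 0.013, while 65 members were called higher and 4 lower (60.5% and 20.8% of all genes).

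Most members were bright, and on the 75th-percentile scale bright probes shifted upwards together. Among genes with a mean normalised log2 signal of 4 or more, the median relative log2 fold change was 0.59 over all 1466 genes and 0.50 over the 54 members. In that range 85.2% of all genes and 45 of the 54 members rose. At a mean signal of 2 to 4 the medians were 0.23 over all genes and 0.12 over 19 members, and at 0 to 2 they were -0.092 and -0.077 (11 members). In the 0 to 2 range and below 0 the members lay above all genes, with -0.19 over all genes and 0.22 over 11 members below 0. After quantile normalization the values for the brightest range were 0.011 for all genes and -0.046 for the members, and those below 0 were -0.019 and 0.31.

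**Figure D2:**
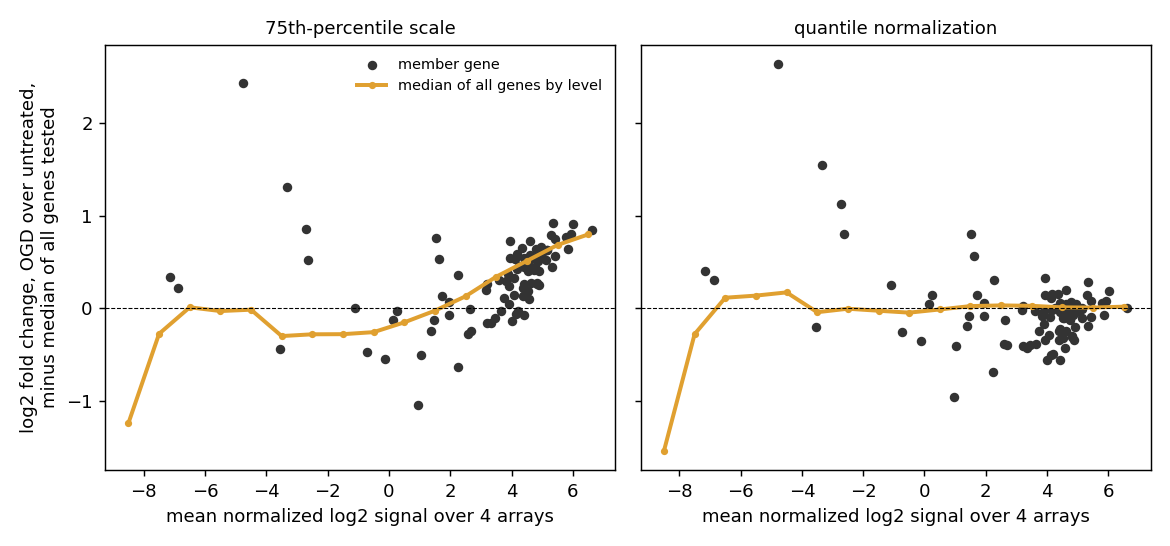
Relative log2 fold change (OGD over untreated, minus the median of all genes) of each member (black) against its mean normalised log2 signal, with the median of all genes per unit of signal (orange), on the 75th-percentile scale and after quantile normalization, without Cox8b. Members above the orange line in both panels include Ndufa4l2 (2.44 and 2.64), Cox6a2 (1.30 and 1.55) and Cox4i2 (0.86 and 1.13). Ndufaf7 (-1.04 and -0.95) lies below it. These values are relative log2 fold changes, not distances from the line.

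Every complex held members that rose, while of all genes 37.1% rose and 27.8% fell. Among all genes with a mean normalised log2 signal of 4 or more, 85.2% rose. Relative to all genes the median log2 fold change was 0.33 for complex I (24 of 37 genes rose), 0.45 for complex II (3 of 4), 0.49 for complex III (6 of 8), 0.59 for complex IV (15 of 19) and 0.35 for complex V (11 of 16), and 0 subunits of these complexes were called lower by limma. At an unadjusted p under 0.05 limma gave 1 lower subunit, Atp5o, the methods' t-test gave 0, and limma with an intensity trend called Atp5o after adjustment. After quantile normalization the medians of complexes I, II, III and V were below 0, at -0.10, -0.016, -0.069 and -0.098. Only that of complex IV stayed above, at 0.14. It pools 11 usual subunits with 8 tissue or condition isoforms, of median normalised log2 signal 4.38 and -4.05. After quantile normalization the usual subunits ran from -0.28 (Ndufa4) to 0.33 (Cox7c). The isoforms without Cox8b ran from 0.31 (Cox8c) to 2.64 (Ndufa4l2). The spike-in scale left the relative values as they were and turned the changes themselves downwards. It called 78 of the 84 subunits lower, against 83.3% of all genes.

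**Figure D3:**
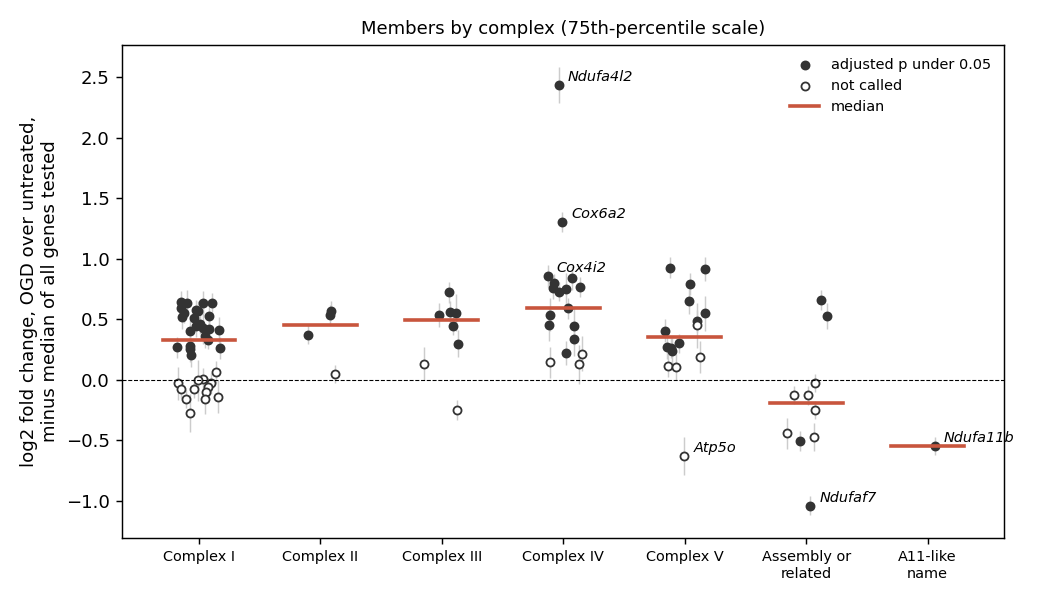
Relative log2 fold change of each member (points, with the standard error of the limma fit) by complex on the 75th-percentile scale. Filled points passed an adjusted p of 0.05, red lines are medians over all genes of a group, Cox8b is not drawn as a point, and the assembly group is the only multi-gene group with a median below 0 (-0.19).

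In complex I, the core subunits, which hold the path of the electrons, had a relative median of 0.07 (3 of 7 rose). The accessory subunits, which surround the core, had 0.41 (21 of 30 rose), and 37.1% of all genes rose. Their median normalised log2 signals were 4.08 and 4.54. After quantile normalization core subunits ran from -0.49 (Ndufs7) to 0.06 (Ndufs8) and accessory subunits from -0.56 (Ndufb2) to 0.31 (Ndufa10). This difference was not tested. On the 75th-percentile scale Ndufa13 (also known as Grim19) was the highest. Its signals were 97133 and 90805 untreated and 70113 and 57059 after OGD. Its log2 fold change was 0.80 ± 0.09 (SE, adjusted p = 0.00402 in limma). After quantile normalization Ndufa13 lay at -0.071 relative to all genes, and Ndufa10 was the highest of complex I. Ndufa8 was the lowest on the 75th-percentile scale, at -0.12. That value rests on 1 untreated array, because its spot on the other was an outlier and was left out.

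Complex II oxidises succinate and is also an enzyme of the TCA cycle. Sdha, its flavoprotein, had signals of 40333 and 41270 untreated and 27545 and 24879 after OGD, a log2 fold change of 0.73 (adjusted p = 0.0031). Sdhd, a membrane anchor, had the smallest change, 0.21 (adjusted p = 0.0781). In complex III, Uqcrb was the highest at 0.88 (adjusted p = 0.00276) and the core protein Uqcrc1 the lowest at -0.09 (adjusted p = 0.388). Both complexes thus ran from members that rose to members that were not called.

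Complex IV held the member that changed most on the 75th-percentile scale. Ndufa4l2, a paralog of the complex IV subunit Ndufa4 (probe at mm9 chr10:126954149-126954208), had low signals of 29.7 and 34.6 untreated and 88.5 and 63.5 after OGD. The groups did not overlap, and it was the highest member under every setting tried, though several settings could not change the order of genes. Its log2 fold change was 2.60 ± 0.15 (SE, adjusted p = 0.00109), or 6.06-fold, on the 75th-percentile scale, 1.91 or 3.76-fold with normexp background correction (adjusted p = 4.67e-06) and 1.31 on the spike-in scale (adjusted p = 0.00142). Ndufa4 itself gave 33709 and 31142 untreated and 18102 and 13172 after OGD, a log2 fold change of 0.30 that was not called (adjusted p = 0.112). The log2 ratio of Ndufa4l2 to Ndufa4 within an array was higher on both OGD arrays than on both untreated ones, by 2.29 on average or 4.91-fold.

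Cox4i1 and Cox4i2 encode the usual and the hypoxia-linked form of subunit IV, a swap described in other cells under low oxygen. Cox4i2 (mm9 chr2:152590711-152590770) gave 239 and 221 untreated and 190 and 170 after OGD, a log2 fold change of 1.02 (adjusted p = 0.0022). Cox4i1 (mm9 chr8:123197924-123197983) gave 88354 and 83618 untreated and 68306 and 58319 after OGD, a log2 fold change of 0.93 (adjusted p = 0.00231). Both changed by nearly the same amount on this scale, so that their log2 ratio moved by 0.09, or 1.07-fold. After quantile normalization, which treats dim and bright probes differently, it moved by 1.07 on the log2 scale, with Cox4i2 called higher and Cox4i1 at 0.06 relative to all genes. The data therefore give no single value for this ratio.

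Among the other isoforms, Cox6a2, the heart and muscle form of subunit VIa, gave 129 and 128 untreated and 152 and 124 after OGD, a log2 fold change of 1.47 (adjusted p = 0.00109). On the spike-in scale it was 0.18 and not called (adjusted p = 0.19). The liver-type Cox6a1 changed by 1.00, and the ratio of Cox6a2 to Cox6a1 by 0.46 (1.54 after quantile normalization). The ratio of Atp5g2 to Atp5g1, genes for the same ring subunit of ATP synthase, was higher by 0.81 (1.76-fold) between their brightest probes, and that of Atp5g3 to Atp5g1 by 0.30. It depended on the probe: the second Atp5g2 probe had a log2 fold change of 0.43 against 1.08, and with it the ratio moved by 0.17, or by -0.061 with the second Atp5g1 probe as well. With the mean over probes the ratios moved by 0.38 and 0.19. Cox6b2 over Cox6b1 moved by 0.41 and Cox7a1 over Cox7a2 by 0.17 (0.64 after quantile normalization), but their groups of arrays overlapped. Cox7b2 over Cox7b moved by -0.11 and overlapped too, with Cox7b2 well above background on only 1 of the 2 OGD arrays. Cox8b, the muscle form of subunit VIII, was not well above background on either OGD array, and no fold is given. Ratios were compared in the other 8 pairs. With 2 arrays against 2, the exact two-sided permutation test cannot go below p = 0.333, so no ratio could pass this test.

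**Figure D4:**
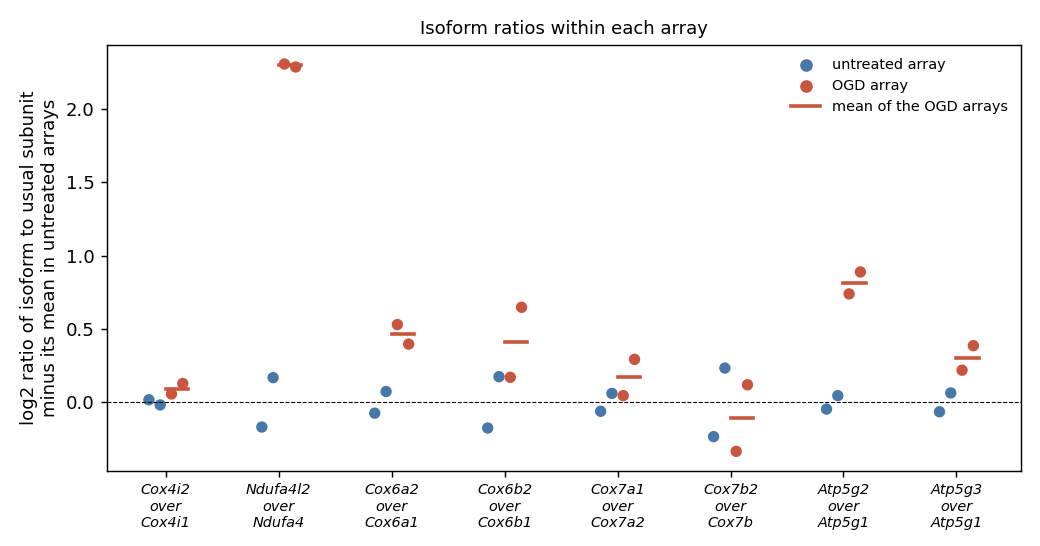
Log2 ratio of each isoform to the usual subunit within an array, minus its mean on the untreated arrays, for the 2 untreated (blue) and 2 OGD arrays (red) on the 75th-percentile scale. The ratio of Ndufa4l2 to Ndufa4 was higher after OGD by 2.29, that of Atp5g2 to Atp5g1 by 0.81, and that of Cox4i2 to Cox4i1 by 0.09, each between the brightest probes.

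In complex V, the small F1 subunit Atp5e had the largest change, with signals of 61964 and 57750 untreated and 52475 and 45912 after OGD (log2 fold change 1.09, adjusted p = 0.00183). Atp5g2 followed at 1.08 (adjusted p = 0.00239) and Atp5l, a membrane subunit, at 0.95 (adjusted p = 0.00252), each by its brightest probe. The other Atp5l probes gave 0.41 to 0.81. Cox8a of complex IV changed by 0.96 by its brightest probe and 0.56 by the other. The lowest was Atp5o, which links the F1 head to the stalk. It gave 13614 and 10624 untreated and 3555 and 3168 after OGD, a log2 fold change of -0.47 that missed the threshold (adjusted p = 0.061).

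The assembly factors lay lower than the subunits, although this difference was not tested. Their relative median was -0.19 over 8 complex I factors, of which 1 rose and 2 fell. Over the 84 subunits it was 0.42, and 59 of them rose, against 37.1% of all genes. The share of factors that fell is near the background of 27.8%, and the second probe of Ndufaf4, which is not its brightest, also fell (-0.97, adjusted p = 0.0172 in limma). After quantile normalization the medians were -0.14 and -0.041, so that most of the gap was gone, and on the spike-in scale all 8 factors were called lower (background 83.3%). The factors' probes were also dimmer, with a median normalised log2 signal of 0.60 against 4.38 for the subunits. Ndufaf7, which acts early in complex I assembly, was the lowest member under every setting tried, though several settings could not change the order of genes. It gave 5469 and 5788 untreated and 1244 and 1117 after OGD, a log2 fold change of -0.88 ± 0.08 (SE, adjusted p = 0.00227). Ndufaf1, which helps build the membrane arm, fell by 0.35 (adjusted p = 0.0268), and Ndufa11b by 0.39 (adjusted p = 0.0154). Ndufaf8 (-0.31) and Atp5s (-0.28) were not called. Ndufaf5, an assembly factor that modifies a core subunit, rose by 0.69 (adjusted p = 0.00798) and Cox7a2l by 0.82 (adjusted p = 0.00297).

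Different probes of a gene did not always give the same change. Of 31 genes with more than 1 probe, 11 had probes that differed by over 0.5 on the log2 scale, and 0 had probes called in opposite directions. Over all 140 probes, 81 rose and 4 fell (37.9% and 27.1% of all probes tested). The range was widest for Ndufaf5, at 1.64, followed by Uqcrb, Ndufa3 at 1.04 and Cox7c at 0.90. The 3 Uqcrb probes gave log2 fold changes of 0.88, 0.97 and -0.13, at overlapping positions, and the last differs from the others at 1 and 2 of the shared bases.

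Other genes of the pathway, on the same scale (background 37.1% risen and 27.8% fallen), differed from list to list. All 8 tested genes of a list of hypoxia-linked genes that act on mitochondria rose on this scale, with 2 more on the array not tested. Not all genes of this list are known to be induced by HIF-1. They ran from Iscu (0.44), an iron-sulphur scaffold, to Bnip3 (3.01), which promotes removal of mitochondria. On the spike-in scale 4 of the 8 were called higher and 4 lower, against 809 and 17542 of all 21061 genes. Of 17 TCA cycle genes 12 rose and 2 fell, among them Suclg2 (1.11) and Dlat (-0.98). Of 20 regulators of mitochondrial DNA and biogenesis, 2 rose and 11 fell, from Mterf1a (-1.48) to Yy1 (0.69). Assembly factors outside the name rule split into 12 that rose and 14 that fell of 37, with 2 not tested, and coenzyme Q and electron carrier genes into 5 and 5 of 20, with 1 not tested. The nucleotide carriers and the ATP synthase inhibitor gave 5 and 1 of 8. Of 9 mitochondrially encoded subunits, 5 rose and 3 fell, from ND6 (-1.42) to ND5 (1.14). On the spike-in scale each of these lists other than the hypoxia-linked genes had at most 1 gene called higher. The lists also differed in brightness. Median normalised log2 signals were 4.64 for the nucleotide carriers, 3.76 for the hypoxia-linked, 3.59 for the mitochondrially encoded and 3.30 for the TCA cycle genes. They were 1.35 for the assembly factors, 1.34 for the coenzyme Q list and -0.35 for the regulators. The part of brightness in these counts was not tested.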

How the data were processed

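The authors hybridised Cy3-labelled cRNA of 4 samples to Agilent 4x44K v2 arrays on 1 slide scanned together, and the deposited values used were each spot's background-subtracted processed signal intensity from Agilent Feature Extraction 11.5.1.1 (per the labels). The deposited series table, intensity on the authors' own scale, served as an alternative. Outlier spots were left out, spots of a probe averaged, and log2 signals set relative to each array's 75th percentile. The 28254 probes (21061 genes) that stood well above background throughout the untreated or the OGD group were fitted with limma 3.58.1 in R 4.3.3, Benjamini-Hochberg adjusted over all probes, and a gene took its brightest probe. Relative values are the log2 fold change minus the median of all genes. The fit was tested on simulated data. Alternatives covered the t-test of the methods, trend, a replicate block, normexp (offset 50), quantile, median and spike-in scaling, filters, outlier spots, the mean over probes, the series table and leaving out each array. Genes named are the isoform pairs, the extremes of the members and of each complex or list, and those whose probes differ most. Members, lists and rules were chosen with earlier results of these data known. Probe positions are as the files give them. The number of arrays limits precision.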

Additional observations from a re-analysis of the deposited data

How the results depend on the processing

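Across 16 alternatives Ndufa4l2 stayed the highest and Ndufaf7 the lowest member, and both stayed called in the tests with 2 arrays per group. Median and spike-in scaling shift all genes alike, and the t-test and the intensity trend use the same fold changes. These settings could not change the order of genes. The number of members called higher (61) became 8 with quantile normalization and 1 with spike-in scaling, and ranged from 27 to 62 when an array was left out (27 without untreated replicate 2, 36 without untreated replicate 1). The number called lower (3) became 20, 89 and, with an intensity trend, 5, and ranged from 1 to 3 with an array left out (1 without untreated replicate 1). The methods' t-test called 53 higher and 4 lower before and 42 and 2 after adjustment. No share of all genes was taken for the t-test, the intensity trend, the replicate block or the fits with an array left out. Those member counts therefore have no background beside them. The relative median (0.37) was 0.013 with normexp, -0.050 with quantile normalization, 0.12 without the filter, 0.33 with the strict filter, 0.31 with the mean over probes, and 0.31 to 0.39 with an array left out. Complexes I and V also turned negative with normexp (-0.090 and -0.066); with quantile normalization complexes I, II, III and V gave -0.10, -0.016, -0.069 and -0.098. With quantile normalization the relative value turned from above to below 0 in 39 members. Among the named genes called on either scale these were Atp5g1 (-0.43), Atp5g3 (-0.20; -0.099 with normexp), Cox7b (-0.083), Ndufa13 (-0.071), Ndufa3 (-0.027) and Sdhd (-0.34). The ratio of Cox7b2 to Cox7b turned to 0.59 with normexp and 0.49 with quantile normalization, and ranged from -0.34 to 0.13 with an array left out. The ratio of Atp5g2 to Atp5g1 was 0.17, 0.59 and, reversed, -0.061 with the other probe of Atp5g2, of Atp5g1 and of both, an alternative chosen after seeing the data. The cause was not tested. Scaling moved the median of all genes from 0.16 to -1.13 (spike-in), -0.02 (quantile) and 0.51 (normexp).

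With the replicate block, 60 members were called higher and 2 lower. Same-numbered arrays did not deviate together (r = -0.057 over 28163 probes), so the numbers were not taken to pair samples. Cox8b was given no value under any setting. Cox8b, Cox8c and Cox7b2 were not well above background on at least 1 OGD array, and 2 arrays per group limit every value.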
